A study of Mus musculus with 6 samples.

Results

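A set of 10 genes that mark the endothelium, the cell layer that lines blood vessels, were followed tumour by tumour in mouse ovarian tumours with and without knockdown of the sialyltransferase gene St3gal3. The genes were chosen for their known roles at endothelial junctions, as receptors and at the cell surface: Pecam1, Cdh5, Esam, Cldn5, Kdr, Tek, Tie1, Eng, Emcn and Vwf. Earlier results of these data were known when they were chosen. All 10 were found by symbol among the 57462 genes of each file, and all 10 were among the 14207 genes tested. RNA sequencing covered 6 tumours grown from HM1, an established mouse ovarian cancer line, in what the submitters call an early tumour model. The cells of 3 tumours had been given a control hairpin RNA (shControl, genotype given as wild type), and those of the other 3 a hairpin against ST3GAL3 (shST3GAL3, genotype given as ST3GAL3 knockdown). No other allele or agent is named. The host's strain and age, the site of growth, the sampling time and whether the lines were clones or pools were not given in the labels. Values are TPM, a transcript level relative to the library total and to gene length. It keeps no record of depth, so precision rests on the 3 tumours of each group. The labels do not tie the tumours to separate animals, so the spread behind the p-values may not be that between animals.

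Endothelial cells hold together through adherens junctions built on VE-cadherin and tight junctions built on claudin 5, with PECAM1 and ESAM beside them. They grow and survive through receptors for vascular endothelial growth factor (VEGF), the angiopoietins and the BMP and TGF-beta family. In tumours the endothelium supplies blood and is also the surface through which circulating leukocytes enter. In RNA from a whole tumour, fewer cells of a type and less RNA per cell cannot be told apart.

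The targeted gene checked the labels. St3gal3 stood at 14.03, 13.84 and 13.79 TPM in shControl 1, 2 and 3, against 8.44, 6.77 and 7.49 TPM in shST3GAL3 1, 2 and 3, with no overlap. Each library had between 13930 and 14762 genes at a TPM of 1 or more. The keratin genes Krt8, Krt18 and Krt19, of simple epithelia, were abundant in every tumour (384.42 to 1303.81 TPM over the 3 genes), while Epcam, another epithelial marker, was at most 1.17 TPM. The tumour shST3GAL3 1 stood apart in many lists of cell markers, and the median of each list is also given without it.

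Promoter windows show what stands before the start sites of the genes whose levels are described here. RefSeq promoter windows, from 250 bases before to 50 bases after the start site on the build GRCm38.p6, were matched by symbol for 6 of the 10 genes. Pecam1, Cdh5, Vwf and Esam were not matched. The windows of Tie1, Emcn, Eng and Tek are printed because each holds at least 1 of 4 motifs. These were searched by exact letters on both strands and are marked in capitals. The motifs were AGGAAG (or CTTCCT on the other strand), 1 form of the site bound by ETS factors, and AGATAA, 1 form for GATA factors. The others were AACAAT (or ATTGTT), 1 form for SOX factors, and TATAAA, the TATA box. Other forms of these sites were not searched, so a window without the letters may still hold such a site.
Tie1, chr4:118489800-118490099, minus strand: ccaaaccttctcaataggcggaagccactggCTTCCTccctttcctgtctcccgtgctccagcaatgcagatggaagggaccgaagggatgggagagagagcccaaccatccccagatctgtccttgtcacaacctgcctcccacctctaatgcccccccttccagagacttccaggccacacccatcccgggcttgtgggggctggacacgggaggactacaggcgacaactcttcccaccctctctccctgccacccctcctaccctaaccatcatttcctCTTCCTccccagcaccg
Emcn, chr3:137340828-137341127, plus strand: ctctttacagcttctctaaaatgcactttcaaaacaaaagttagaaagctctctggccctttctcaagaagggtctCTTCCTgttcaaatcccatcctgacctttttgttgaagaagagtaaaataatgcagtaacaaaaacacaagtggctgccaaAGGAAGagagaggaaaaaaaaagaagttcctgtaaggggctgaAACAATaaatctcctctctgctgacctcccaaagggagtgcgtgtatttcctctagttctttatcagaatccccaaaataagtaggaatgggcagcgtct
Eng, chr2:32646345-32646644, plus strand: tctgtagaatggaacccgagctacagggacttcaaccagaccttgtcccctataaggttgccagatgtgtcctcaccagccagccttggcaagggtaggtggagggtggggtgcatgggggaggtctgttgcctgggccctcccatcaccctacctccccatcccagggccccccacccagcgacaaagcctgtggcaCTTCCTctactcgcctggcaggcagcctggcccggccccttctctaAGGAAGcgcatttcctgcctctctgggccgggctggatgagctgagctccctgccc
Tek, chr4:94739039-94739338, plus strand: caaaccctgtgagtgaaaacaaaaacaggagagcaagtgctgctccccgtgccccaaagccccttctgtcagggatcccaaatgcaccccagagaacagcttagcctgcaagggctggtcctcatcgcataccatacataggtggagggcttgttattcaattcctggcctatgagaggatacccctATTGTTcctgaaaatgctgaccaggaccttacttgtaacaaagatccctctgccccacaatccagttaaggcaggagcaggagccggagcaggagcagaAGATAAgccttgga

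The ETS letters stood in 3 of the 6 windows, those of Tie1, Emcn and Eng, and in 35.4% of all 32851 windows in the RefSeq table. The SOX letters stood in 2 of 6, Emcn and Tek (10.7% of all windows), and the GATA letters in 1 of 6, Tek (11.2%). The TATA letters stood in 0 of 6 (13.6%), and the windows of Kdr and Cldn5 held none of the 4 motifs. The matches did not overlap one another, and they describe letters in a window, not bound sites.

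All 10 endothelial genes had a higher mean in the shST3GAL3 tumours, by between 2.05 times (Cldn5 and Esam) and 3.62 times (Tek). They were chosen with earlier results of these data known, so the shares of all genes given beside them are description, not a test. The log2 fold change was positive for 10 of 10, against 52.7% of all genes tested. For 9 of the 10, all but Esam, all 3 shST3GAL3 tumours lay above all 3 shControl tumours, against 15.7% of all genes. None of the 10 passed the test over all genes (limma on log2(TPM + 1), Benjamini-Hochberg adjusted p between 0.380 and 0.402), where 0% of genes passed as higher and 0.00704% as lower. The targeted gene St3gal3 did not pass that limma test either (log2 fold change -0.80, adjusted p = 0.348), although its groups did not overlap. Failing the test therefore does not show that a gene was unchanged. At an unadjusted limma p under 0.05 there were 8 of 10, against 9.19% of all genes that were higher at that level. The median log2 fold change of the 10 was 1.04, and that of all genes tested 0.01. An exact two-sided permutation test of the difference in mean TPM gave p = 0.1 for 9 genes, the smallest that 3 against 3 samples allow, and p = 0.2 for Esam. Without shST3GAL3 1 the median was 0.64. There 9 of 10 did not overlap (21.2% of all genes), but leaving out a tumour cannot lower this count. At an unadjusted limma p under 0.05 there were 8 (8.54%). Without shControl 1, 2 or 3 that last count was 4, 3 and 5 (5.73%, 4.41% and 4.76% of all genes).

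**Figure D1:**
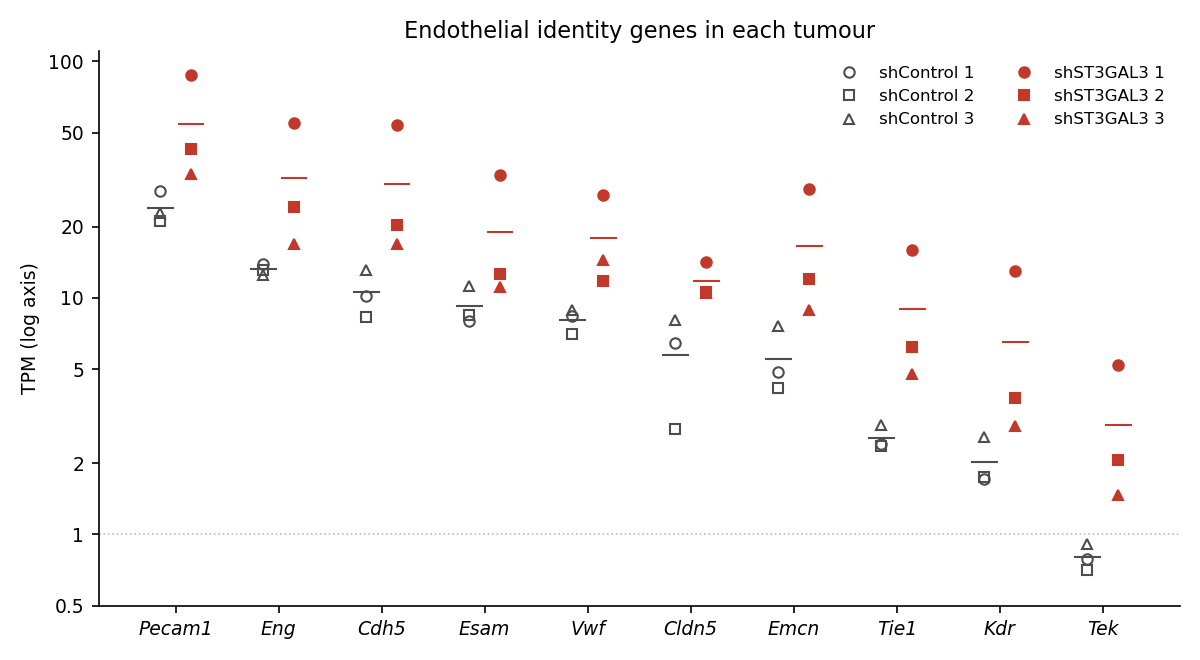
TPM on a log axis of the 10 endothelial genes, ordered by their shControl mean, in 3 shControl (open grey) and 3 shST3GAL3 (filled red) tumours, with bars at the group means and a dotted line at a TPM of 1. The shST3GAL3 1 tumour is the highest of the 6 for all 10 genes, and the groups overlap for Esam alone among them.

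Among the junction genes, Pecam1 (ENSMUSG00000020717) encodes CD31, an adhesion molecule that platelets and many leukocytes also carry. Its values were 28.23, 21.12 and 22.8 TPM in shControl 1, 2 and 3, against 87.12, 42.43 and 33.41 TPM in shST3GAL3 1, 2 and 3. All shST3GAL3 values were higher, the lowest by 1.18 times the highest control. Means were 24.05 ± 3.72 and 54.3 ± 28.8 TPM (SD, n = 3 each), and the log2 fold change was 1.03 (SE 0.34), or 0.64 without shST3GAL3 1. Cdh5 (ENSMUSG00000031871) encodes VE-cadherin, which builds the adherens junctions of the endothelium. It stood at 10.22, 8.31 and 13.08 TPM in the control tumours and at 53.71, 20.32 and 16.82 TPM in the shST3GAL3 tumours. The groups again did not overlap, and shControl 3 was the highest control. The log2 fold change of Cdh5 was 1.27 (SE 0.42), and 0.78 without shST3GAL3 1.

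Esam (ENSMUSG00000001946), an immunoglobulin-type adhesion molecule of endothelial tight junctions and platelets, was the 1 gene of the 10 with overlap. Its values were 8.01, 8.48 and 11.24 TPM in shControl 1, 2 and 3, against 33.01, 12.64 and 11.12 TPM in shST3GAL3 1, 2 and 3, so that shST3GAL3 3 lay just below shControl 3. Its log2 fold change was 0.81 (SE 0.39, 95% interval -0.12 to 1.74), and 0.34 without shST3GAL3 1. Cldn5 (ENSMUSG00000041378), the main claudin of endothelial tight junctions, differed from the rest in which tumours set its difference. It stood at 6.42, 2.8 and 8.06 TPM in the control tumours and at 14.21, 10.61 and 10.51 TPM in the shST3GAL3 tumours. The shST3GAL3 tumours were close to each other and the control tumours were spread, with shControl 2 low. Its log2 fold change was 1.00 (SE 0.33), 0.87 without shST3GAL3 1 and 0.63 without shControl 2.

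Among the receptors, Kdr (ENSMUSG00000062960) encodes VEGFR2, the main signalling receptor for VEGF-A on endothelial cells. Its values were 1.72, 1.75 and 2.58 TPM in shControl 1, 2 and 3, against 12.93, 3.79 and 2.86 TPM in shST3GAL3 1, 2 and 3. The groups did not overlap, with shST3GAL3 3 1.11 times the highest control, the narrowest gap among the 9 genes without overlap. The log2 fold change was 1.09 (SE 0.47, 95% interval -0.04 to 2.21), 0.52 without shST3GAL3 1 and 0.69 with library weights. Eng (ENSMUSG00000026814) encodes endoglin, a co-receptor for BMP9 and TGF-beta that macrophages and stromal cells can also carry. It stood at 13.91, 13.13 and 12.53 TPM in the control tumours, the tightest control group of the 10 genes (coefficient of variation 5.25%), and at 54.86, 24.13 and 16.89 TPM in the shST3GAL3 tumours. All shST3GAL3 values were higher. The log2 fold change of Eng was 1.05 (SE 0.39), and 0.58 without shST3GAL3 1.

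Tek and Tie1 encode the 2 receptors of the TIE family: TEK, or TIE2, binds the angiopoietins, and TIE1 pairs with it and binds no angiopoietin by itself. Tek (ENSMUSG00000006386) stood at 0.79, 0.71 and 0.91 TPM in shControl 1, 2 and 3, against 5.18, 2.07 and 1.47 TPM in shST3GAL3 1, 2 and 3. It passed the filter on low values through its shST3GAL3 tumours alone, so that its lack of overlap was fixed by the filter. Without any filter 9 of 10 genes did not overlap either, against 10.7% of 28218 genes. Its log2 fold change was 1.00 (SE 0.35), 0.61 without shST3GAL3 1 and 1.54 with a pseudocount of 0.1 in place of 1. Tie1 (ENSMUSG00000033191) stood at 2.4, 2.37 and 2.89 TPM in the control tumours and at 16.0, 6.19 and 4.77 TPM in the shST3GAL3 tumours. No value overlapped, and the lowest shST3GAL3 tumour was 1.65 times the highest control, the widest gap of the 10 genes. Tie1 had the highest log2 fold change of the 10, 1.33 (SE 0.39), and 0.86 without shST3GAL3 1. The ratio of Tek to Tie1 was 0.329, 0.300 and 0.315 in the control and 0.324, 0.334 and 0.308 in the shST3GAL3 tumours, which overlapped.

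The sialomucin gene Emcn (ENSMUSG00000054690), whose product coats capillary and venous endothelium and limits leukocyte adhesion, stood at 4.86, 4.16 and 7.58 TPM in shControl 1, 2 and 3, against 28.85, 11.99 and 8.88 TPM in shST3GAL3 1, 2 and 3. All shST3GAL3 values were higher, though shST3GAL3 3 lay close to shControl 3. The log2 fold change was 1.30 (SE 0.42), and 0.83 without shST3GAL3 1. Vwf (ENSMUSG00000001930) encodes von Willebrand factor, the clotting protein that endothelial cells and platelets store and release. It stood at 8.37, 7.02 and 8.91 TPM in the control tumours and at 27.32, 11.84 and 14.44 TPM in the shST3GAL3 tumours. It was the 1 gene of the 10 for which shST3GAL3 3 was above shST3GAL3 2. Its log2 fold change was 0.97 (SE 0.29), 0.64 without shST3GAL3 1 and 0.63 with library weights.

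**Figure D2:**
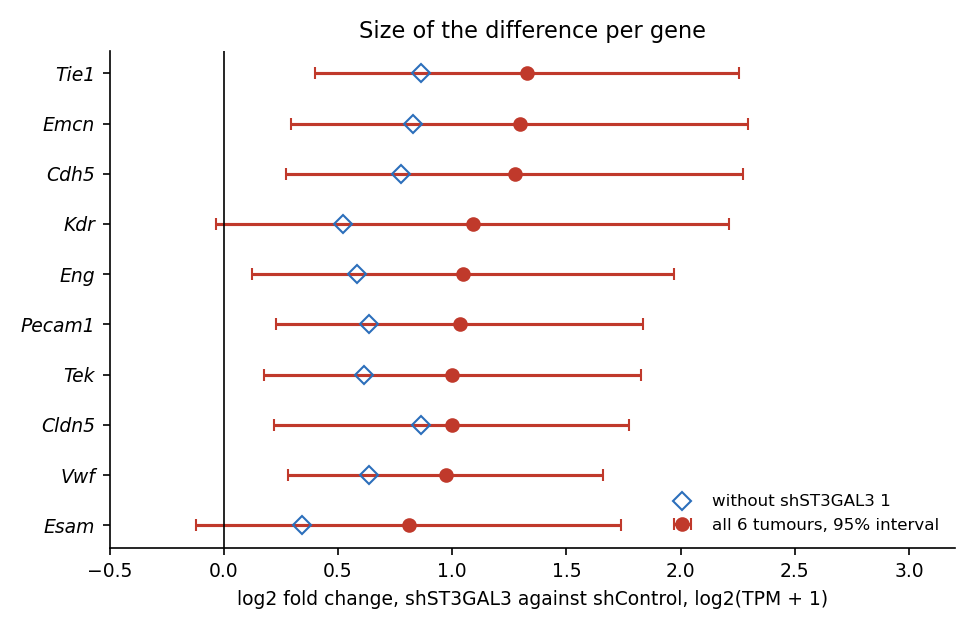
Log2 fold change on the log2(TPM + 1) scale of the 10 endothelial genes with its 95% interval from limma (red), and the same estimate without shST3GAL3 1 (blue diamonds). All 20 estimates are above 0, and the intervals of Kdr and Esam reach below 0.

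The 10 genes moved by unlike amounts in the 3 shST3GAL3 tumours. In shST3GAL3 1 they stood at between 2.47 (Cldn5) and 6.45 (Tek) times their shControl mean, in shST3GAL3 2 at between 1.37 (Esam) and 2.58 (Tek) times and in shST3GAL3 3 at between 1.20 (Esam) and 1.87 (Tie1) times. Their summed TPM was 84.93, 69.85 and 90.58 in shControl 1, 2 and 3 and 333.19, 146.01 and 121.17 in shST3GAL3 1, 2 and 3. For 7 of the 10 the lowest tumour of all was shControl 2. Within the shST3GAL3 group the coefficient of variation ran from 17.9% for Cldn5 and 46.4% for Vwf to 85.3% for Kdr, and in the control group from 5.25% for Eng to 46.7% for Cldn5. Kdr was 3.89 times as high in shST3GAL3 1 as in the mean of the other two, Cldn5 1.35 times.

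The order of the levels, comparable between genes because TPM is per length, was much alike between tumours. Pecam1 was first, Kdr the ninth and Tek the last in all 6 libraries, and Eng was second in 5 of 6. By the mean of the control tumours, Pecam1 stood clear of Eng, Emcn of Tie1 and Kdr of Tek, while every other pair of neighbours had overlapping values. Across the shST3GAL3 tumours the values of all neighbours overlapped. Within each of these 3 libraries Pecam1 stood above Eng, Eng above Cdh5, Cdh5 above Esam, Tie1 above Kdr and Kdr above Tek. The other neighbours changed order between the libraries. Pecam1 held 29.6% ± 4.08 of the 10 genes' summed TPM in the control and 27.6% ± 1.46 in the shST3GAL3 tumours (SD, n = 3 each), and its groups overlapped. The shares of Tie1 (3.14% ± 0.287 and 4.33% ± 0.439) and Tek (0.984% ± 0.0468 and 1.40% ± 0.172) did not overlap, and those of the other 8 genes did.

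**Figure D3:**
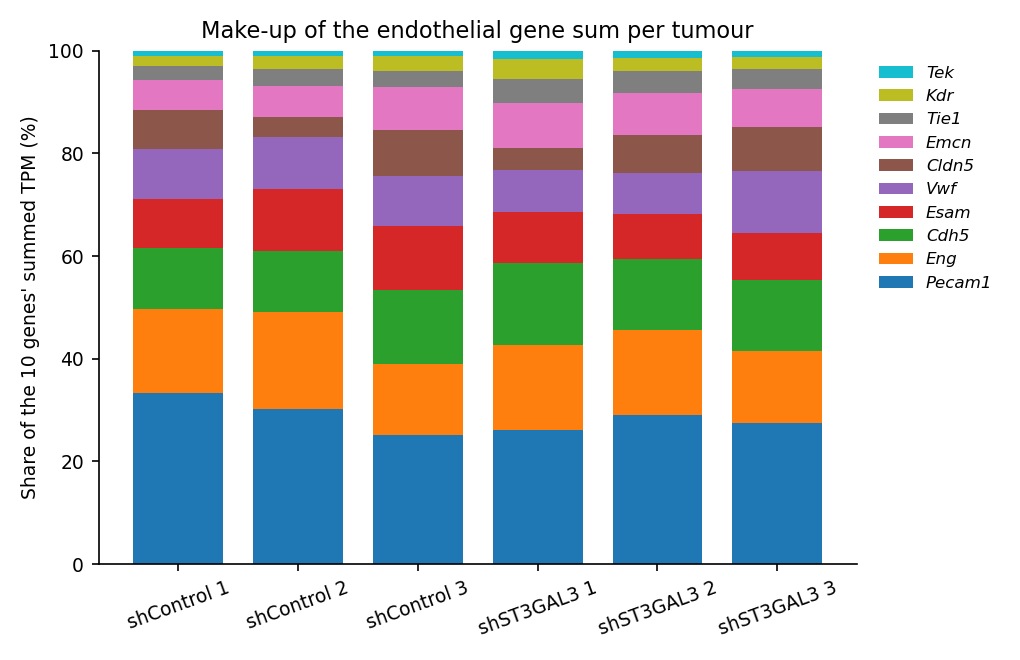
Share of each gene, in percent, in the summed TPM of the 10 endothelial genes in each of the 6 tumours. Pecam1 is the largest share in every tumour, and the shares of Tie1 and Tek are larger in all 3 shST3GAL3 tumours than in any shControl tumour.

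Other endothelial genes were examined through lists chosen by function, also with earlier results of these data known. Of 24 further genes of the endothelial surface, junction and signalling, 22 were tested, and the log2 fold change was positive for all 22 (median 0.84). Without shST3GAL3 1 it was positive for 21, with a median of 0.48. In limma 0 passed over all genes, 12 were higher at an unadjusted p under 0.05 and 12 did not overlap, against the 9.19% and 15.7% of all genes. The count at that p was 4, 2 and 8 without shControl 1, 2 or 3 (5.73%, 4.41% and 4.76% of all genes). It was 18 without shST3GAL3 3 (12.7%) and 7 with median-ratio scaling (6.93%). Plvap, which forms the diaphragms of fenestrae, stood at 23.76, 33.02 and 25.33 TPM in shControl 1, 2 and 3, against 126.23, 47.53 and 32.31 TPM in shST3GAL3 1, 2 and 3. Egfl7, a secreted endothelial factor, stood at 10.94, 10.2 and 15.05 TPM and at 51.76, 20.28 and 13.05 TPM. In both genes shST3GAL3 3 lay within the control range. Mmrn2, a matrix protein of vessels, stood at 2.26, 2.19 and 2.88 TPM and at 13.91, 6.54 and 4.07 TPM, and Podxl, a sialomucin, at 3.1, 2.5 and 2.93 TPM and at 12.31, 5.43 and 5.05 TPM, both without overlap. Ecscr, a surface gene named for endothelial cells, was unlike them: it stood between 104.21 and 118.3 TPM in all 6 tumours, more than the 10 endothelial genes together in the control tumours, with a log2 fold change of 0.07 (SE 0.07).

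Transcription factors that act in endothelial cells gave a divided picture. Of 19 listed 16 were tested, 13 had a positive and 3 a negative log2 fold change, and the median was 0.53, or 0.38 without shST3GAL3 1. None passed over all genes in limma, 8 were higher at an unadjusted p under 0.05 (9.19% of all genes) and 8 did not overlap (15.7%). Both counts include Hey1, a Notch target named after its values were seen, which passed the filter through its shST3GAL3 tumours alone, so that its lack of overlap was fixed. The count at that p was 2, 2 and 5 without shControl 1, 2 or 3 (5.73%, 4.41% and 4.76% of all genes). It was 5 without shST3GAL3 1 or 2 (8.54% and 7.67%). Sox18, a SOX factor of developing vessels, stood at 2.65, 2.91 and 2.87 TPM in shControl 1, 2 and 3, against 27.32, 8.9 and 4.84 TPM in shST3GAL3 1, 2 and 3 (log2 fold change 1.63, SE 0.53). Klf2, which responds to blood flow, stood at 12.57, 11.04 and 11.46 TPM and at 19.69, 15.53 and 14.84 TPM. Neither overlapped. Of the 4 most abundant factors, Ets2 was higher in every shST3GAL3 tumour than in any control (17.54 to 20.27 and 20.85 to 35.82 TPM), and the other 3 overlapped. Ets1 stood between 66.3 and 77.14 TPM, Elk3 between 63.2 and 73.53 TPM and Hhex between 14.62 and 19.86 TPM over all tumours. Erg, an ETS factor largely restricted to endothelium and named after its values were seen, stood at 0.92, 1.37 and 2.65 TPM and at 7.77, 2.91 and 2.77 TPM, with shST3GAL3 3 close to shControl 3.

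Genes of the receptors' ligands and of co-receptors were mixed. Of 17 listed 14 were tested, with a median log2 fold change of 0.22 (0.11 without shST3GAL3 1), 10 positive and 4 negative values and 0 passing in limma. At an unadjusted p under 0.05 there were 5 higher and 1 lower (9.19% and 3.78% of all genes), and 5 lay above and 1 below the control range (15.7% and 7.76%). Angpt4, an angiopoietin gene named after its values were seen, is in both counts of 5 and passed the filter through its shST3GAL3 tumours alone. The higher genes at that p numbered 2, 0 and 3 without shControl 1, 2 or 3 (5.73%, 4.41% and 4.76% of all genes). Those above the range numbered 8 without shST3GAL3 3 (23.1%), while 2 lay below it without shControl 1 or shST3GAL3 1 (13% and 9.38%). Vegfa, the ligand of VEGFR2, stood at 94.1, 129.74 and 93.01 TPM in shControl 1, 2 and 3, against 133.13, 69.16 and 72.8 TPM in shST3GAL3 1, 2 and 3. It was the highest in shST3GAL3 1 and below the controls in the other 2, so the groups overlapped. The gene below the control range was Angpt1, the activating ligand of TIE2, named after its values were seen, at 3.99, 4.89 and 7.7 TPM and 1.68, 2.39 and 3.71 TPM (log2 fold change -0.86, SE 0.29). The ligand gene Angpt2, stored by endothelial cells, overlapped between 6.49 and 9.55 TPM in the control and 7.78 and 9.1 TPM in the shST3GAL3 tumours.

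The receptor gene Flt1, also named after its values were seen, encodes VEGFR1, which binds VEGF-A tightly and signals weakly. It stood at 29.31, 23.57 and 24.5 TPM in the control and at 27.79, 26.34 and 25.46 TPM in the shST3GAL3 tumours, and its log2 fold change was 0.04 (SE 0.11). The ratio of Kdr to Flt1 was 0.0587, 0.0743 and 0.105 in shControl 1, 2 and 3 and 0.465, 0.144 and 0.112 in shST3GAL3 1, 2 and 3, without overlap. Flt4, which encodes the VEGF-C receptor VEGFR3, stood at 0.85, 0.54 and 1.04 TPM and at 3.26, 1.92 and 1.41 TPM. Tgfbr2, a TGF-beta receptor of many cell types, stood at 37.15, 34.75 and 36.89 TPM and at 89.66, 48.01 and 42.6 TPM. Neither of these overlapped, and Tgfb1 stood between 249.21 and 320.68 TPM over all tumours, with overlap.

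**Figure D4:**
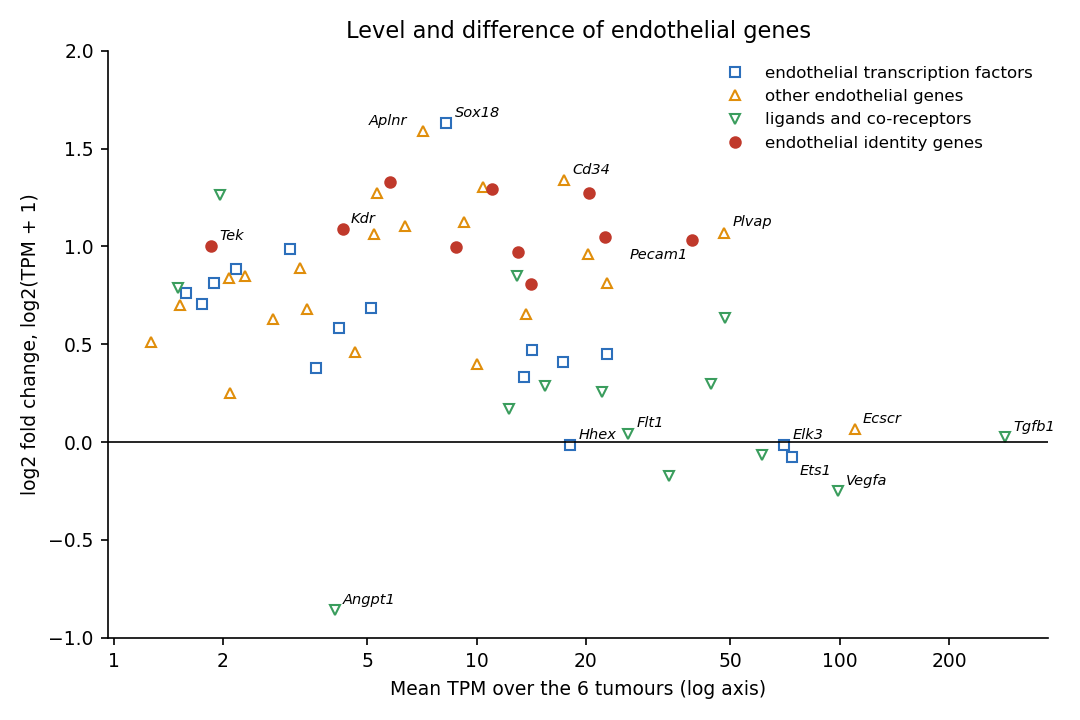
Log2 fold change on the log2(TPM + 1) scale against mean TPM over the 6 tumours (log axis) for the 10 endothelial genes (filled red) and the tested genes of 3 other lists. The 10 genes lie between 0.81 and 1.33, while Ecscr, Ets1, Elk3, Hhex, Flt1 and Tgfb1, all above 15 TPM, lie near 0.

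Genes that endothelial cells use to hold leukocytes and to control clotting were mixed. Of 14 listed 13 were tested, with a median log2 fold change of 0.19, 9 positive and 4 negative values, and 0 passing in limma. The median was 0.29 without shST3GAL3 1, 0.35 without shControl 3 and 0.34 with library weights. At an unadjusted p under 0.05 there were 4 higher and 1 lower (9.19% and 3.78% of all genes), and 4 lay above the control range (15.7%). Both counts of 4 include Ackr1, a chemokine receptor of venules named after its values were seen, which passed the filter through its shST3GAL3 tumours alone. The higher genes at that p numbered 2 without shControl 2 or 3 (4.41% and 4.76% of all genes) and 1 without shST3GAL3 2 (7.67%). Vcam1, an adhesion receptor for lymphocytes and monocytes, stood at 35.21, 28.52 and 29.6 TPM in shControl 1, 2 and 3, against 86.17, 56.52 and 44.53 TPM in shST3GAL3 1, 2 and 3 (log2 fold change 0.93, SE 0.23). Icam1, which binds leukocyte integrins, stood at 28.15, 26.43 and 25.3 TPM and at 36.72, 40.05 and 29.77 TPM, also without overlap. Plat, the tissue plasminogen activator, was the gene that was lower at that level, at 85.15, 102.69 and 102.16 TPM and at 87.88, 70.76 and 73.39 TPM, with overlap. Procr stood between 55.03 and 74.74 TPM and Cx3cl1 between 44.79 and 74.73 TPM over all tumours.

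Cytoplasmic and membrane partners of the endothelial junction, most of which other cell types share, were divided. Of 13 genes 12 were tested, with 5 positive and 7 negative log2 fold changes and a median of -0.03, which was 0.004 without shST3GAL3 1 and 0.002 without shControl 3. Ctnnb1, which encodes the beta-catenin that binds cadherins, stood between 390.3 and 446.0 TPM, and Ctnna1, its alpha-catenin partner, between 145.45 and 169.41 TPM. In limma 0 passed over all genes, and the 1 gene at an unadjusted p under 0.05 (9.19% of all genes were higher at that level) was Jam3, a junctional adhesion molecule, at 1.22, 1.13 and 1.69 TPM in the control and 8.24, 3.44 and 1.89 TPM in the shST3GAL3 tumours. That count was 0 without shControl 2 or 3 or shST3GAL3 2 (4.41%, 4.76% and 7.67% of all genes). Ptprm, a phosphatase of endothelial contacts, stood at 1.47, 1.04 and 1.52 TPM and at 7.87, 2.59 and 1.89 TPM, without overlap. In this list 4 genes lay above the control range and 0 below it (15.7% and 7.76% of all genes). With quantile normalization these numbered 2 and 2 (10.5% and 13.5%).

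For markers of vessel subtypes the median log2 fold change was 0.43 over 17 of 18 genes tested, and 0.11 without shST3GAL3 1. At an unadjusted limma p under 0.05 there were 5 higher and 1 lower (9.19% and 3.78% of all genes), 6 lay above the control range and 1 below it (15.7% and 7.76%), and 0 passed over all genes. Gja5, a connexin gene of arteries named after its values were seen, is in the counts of 5 and 6 and passed the filter through its shST3GAL3 tumours alone. Of the 5 higher genes, Gpihbp1, Nr2f2 and Vcam1 were also counted in the lists above. The higher genes at that p numbered 3 and 1 without shControl 1 or 2 (5.73% and 4.41% of all genes). They numbered 3 without shST3GAL3 1, 2 or 3 (8.54%, 7.67% and 12.7%). Cxcl12, a chemokine of arterial endothelium and fibroblasts, stood at 8.46, 5.37 and 7.18 TPM in the control and at 104.65, 30.6 and 12.57 TPM in the shST3GAL3 tumours. The basement membrane genes Col4a1 (211.62 to 241.67 TPM) and Col4a2 (101.06 to 137.5 TPM) overlapped between the groups. Apln, a ligand gene of tip cells and the one that was lower, stood at 30.74, 37.51 and 29.83 TPM and at 20.6, 28.03 and 24.5 TPM, without overlap. Its receptor gene Aplnr, named after its values were seen, stood at 1.28, 2.48 and 2.71 TPM and at 26.88, 6.49 and 2.85 TPM. In the lymphatic list 5 of 8 genes were tested, with a median of 1.15 (0.58 without shST3GAL3 1), and 3 lay above the control range (15.7% of all genes). However, Prox1, the factor that defines lymphatic endothelium, was at most 0.32 TPM in any tumour.

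Markers of other cells moved with the endothelial genes, and their part in the result was not tested. All 10 fibroblast genes had positive log2 fold changes, with a median of 1.59 (0.85 without shST3GAL3 1), 9 did not overlap (15.7% of all genes), and none is at 0. Their summed TPM ran from 939 to 1459 in the control and from 1736 to 7745 in the shST3GAL3 tumours. Per 100 TPM of fibroblast genes there were 7.16, 7.44 and 6.21 TPM of the endothelial genes in shControl 1, 2 and 3 and 4.30, 5.90 and 6.98 TPM in shST3GAL3 1, 2 and 3. These overlapped, and shST3GAL3 1, the highest in both sums, had the lowest ratio. Of the 14 pericyte and smooth muscle genes, of the cells that wrap vessels, 4 did not overlap (15.7% of all genes) and 2 were higher at an unadjusted limma p under 0.05 (9.19%), with a median of 0.48 (0.21 without shST3GAL3 1). The count at that p was 1 without shControl 1 or 2 (5.73% and 4.41% of all genes) and 4 without shST3GAL3 1 or 2 (8.54% and 7.67%). The sum of the 14 genes ran from 202 to 260 TPM in the control and from 303 to 1078 TPM in the shST3GAL3 tumours. In shST3GAL3 1 most of it was Acta2 (460.35 TPM) and Tagln (327.41 TPM). These stood at 49.39 to 77.56 TPM and 21.73 to 43.2 TPM in the control, both without overlap. Per 100 TPM of the 14 genes the endothelial genes stood at 32.7, 34.5 and 35.9 in the control and at 30.9, 46.5 and 40.0 in the shST3GAL3 tumours, with overlap. Pdgfrb, a receptor of pericytes and fibroblasts, stood at 32.4, 26.21 and 35.62 TPM and at 87.11, 50.88 and 44.13 TPM, while the pericyte gene Rgs5, named after its values were seen, overlapped at 19.66, 29.63 and 30.11 TPM and at 45.09, 22.66 and 16.24 TPM.

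Pecam1, Eng, Esam and Vwf are also made by leukocytes or platelets. The 8 macrophage genes had positive log2 fold changes with a median of 0.52 (0.31 without shST3GAL3 1), 3 without overlap (15.7% of all genes), and a sum of 2217 to 2440 TPM in the control and 2387 to 4091 TPM in the shST3GAL3 tumours. Without shST3GAL3 3 all 8 were without overlap (23.1%). Of 6 pan-leukocyte genes 5 were tested, with a median of 0.58 (0.33 without shST3GAL3 1) and sums of 308 to 360 and 372 to 672 TPM, and the B cell gene Cd79a was listed at 0 in shControl 1 and shST3GAL3 3. Per 100 TPM of the pan-leukocyte genes the endothelial genes stood at 23.6, 22.0 and 29.4 TPM in the control and at 49.6, 31.3 and 32.6 TPM in the shST3GAL3 tumours, and per 100 TPM of macrophage genes at 3.77, 2.86 and 4.09 and at 8.15, 4.58 and 5.08 TPM, neither with overlap. Of 10 platelet genes 4 passed the filter, with a median of 0.44, 1 without overlap (15.7% of all genes) and sums of 118 to 159 and 132 to 335 TPM. The platelet median was 0.18 without shST3GAL3 1, 0.66 without shST3GAL3 2, where 2 did not overlap (20.9%), and 0.098 with library weights. Of the defining platelet receptor genes Gp1ba, Gp1bb, Gp9 and Gp6, none exceeded 0.77 TPM in any tumour. The ratio of Vwf to the platelet gene Pf4 was 0.0652, 0.0749 and 0.0769 in the control and 0.0984, 0.113 and 0.113 in the shST3GAL3 tumours, without overlap.

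Blood, tumour cell and neighbouring tissue genes were read in the same way. Over the 4 tested globin genes the median log2 fold change was 0.79 (0.60 without shST3GAL3 1), and 2 did not overlap (15.7% of all genes). Without shControl 2 (20.5%) or shST3GAL3 3 (23.1%) none of the 4 overlapped. The erythroid genes summed to 121 to 164 TPM in the control and 185 to 319 TPM in the shST3GAL3 tumours. The epithelial list, 6 of 8 genes tested, had a median of -0.16, which was -0.08 without shST3GAL3 1 and -0.31 without shST3GAL3 3. Its sum, mostly Krt8, Krt18 and Krt19, was 3209 to 3690 TPM in the control. In shST3GAL3 1, 2 and 3 the sum was 1782, 2701 and 3214 TPM, opposite in order to the endothelial genes. Krt8, Krt18 and Krt19 had negative and Cdh1, Msln and Wt1 positive log2 fold changes. Cdh1 and Wt1 were highest in shST3GAL3 1 (9.46 and 3.01 TPM). Of 7 fat and mesothelial genes 3 were tested, with a median of 0.98 (0.76 without shST3GAL3 1), and 2 did not overlap (15.7% of all genes). Fabp4, which capillary endothelium also makes, stood at 11.25, 6.83 and 9.46 TPM in the control and at 67.21, 37.1 and 11.82 TPM in the shST3GAL3 tumours. Lpl, with a negative log2 fold change, overlapped at 20.24, 19.16 and 18.93 TPM and at 14.3, 20.95 and 19.15 TPM. Adipoq, made by fat cells and not tested, was at most 0.23 TPM in the control and 3.04, 2.74 and 0.33 TPM in shST3GAL3 1, 2 and 3. Skeletal muscle genes followed another order. Their median was 1.15, but 2.28 without shST3GAL3 1, -0.03 without shST3GAL3 2 and 0.27 without shControl 2. They summed to 114.51, 3.48 and 22.51 TPM in the control and to 4.33, 375.27 and 73.13 TPM in the shST3GAL3 tumours. Among the latter shST3GAL3 1, the highest for all 10 endothelial genes, was the lowest.

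**Figure D5:**
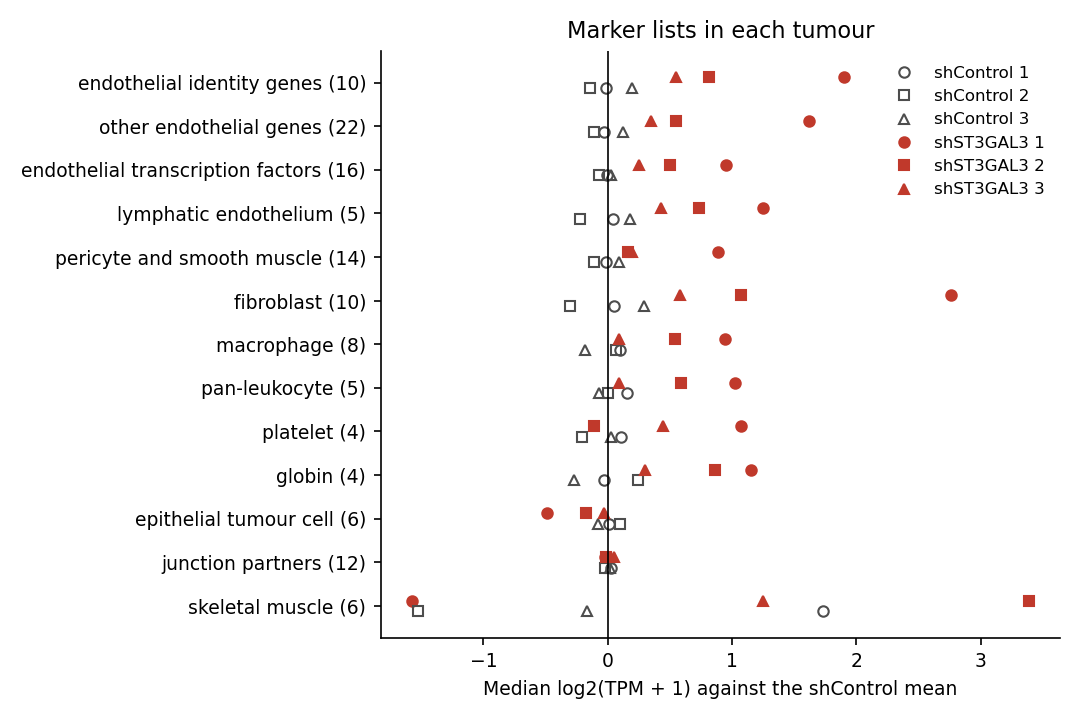
Median over the tested genes of each list (number in brackets) of log2(TPM + 1) minus the shControl mean, for each of 3 shControl (open grey) and 3 shST3GAL3 (filled red) tumours. The endothelial genes stand at 1.90, 0.82 and 0.55 in shST3GAL3 1, 2 and 3, the fibroblast genes at 2.76, 1.07 and 0.58, and the skeletal muscle genes in another order.

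The pattern of the 10 genes over the 6 tumours was shared by genes with other roles. Each gene's log2(TPM + 1) was centred on its own mean, and likeness was the root mean square difference from the mean profile of the 10 over the 6 tumours, which all candidates share. Among 11558 genes outside the 10, the closest were Tlr2, a receptor for bacterial lipoproteins (difference 0.03), Fzd1, a WNT receptor (0.07), Draxin, a guidance protein of axons (0.07), Icos, a co-stimulatory receptor of T cells (0.07), C2, a complement component (0.08), and Thbd, the anticoagulant thrombomodulin of endothelium (0.08). The median difference over the candidates was 0.72. Tlr2 stood at 4.47, 3.54 and 4.95 TPM in shControl 1, 2 and 3, against 18.53, 8.32 and 6.78 TPM in shST3GAL3 1, 2 and 3, and Thbd at 1.53, 0.97 and 1.82 TPM and at 8.15, 3.03 and 2.09 TPM. The 10 genes themselves lay between 0.09 (Tek) and 0.40 (Cldn5) from their own mean, with a median of 0.17, and 81 candidate genes were closer than that median. Cldn5 was the farthest of the 10, and 839 candidate genes were closer to the mean profile than it was.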

How the data were processed

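Total RNA of 6 tumours was sequenced after TRIzol extraction and DNase I treatment, per the labels' protocols. The tools fastp, HISAT and RSEM and the build GRCm39 are listed in the submitters' processing notes, without versions or roles. The annotation and the parameters were not stated there. The authors deposited TPM per gene, a unit inferred from fractional values whose library totals lie from 999999 to 1000001. TPM is relative to each library's total and keeps no depth. Samples were grouped by title. The 14207 genes that reached a TPM of 1 in 3 libraries were fitted with limma 3.58.1 in R 4.3.3 on log2(TPM + 1), with a mean-variance trend and the group alone, with Benjamini-Hochberg adjustment over all of them and a threshold of 0.05. Fold changes on this scale understate the change of low genes. The fit was checked on simulated data. Log2 fold changes carry the moderated SE, and intervals are at 95%.

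The 10 genes and the 16 other lists were chosen with earlier results of these data known. Of the listed genes 4 were in more than 1 list, namely Gpihbp1, Nr2f2, Vcam1 and Flt4, so the lists are not separate from one another. From each list the text names up to 4 genes with the highest mean TPM and up to 2 with the smallest p, all members of the 10, the 6 genes most like them and St3gal3; others are marked as named after their values were seen, or are the gene a small count refers to, a defining marker of a list or a list's outlying value. Motifs were searched by exact letters. Alternatives were 2 other pseudocounts, 2 other filters, 2 other scalings, library weights, no trend, the replicate number as a block and leaving out each library.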

Additional observations from a re-analysis of the deposited data

How the results depend on the processing

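Under the 15 alternatives, 147 log2 fold changes of single genes could be computed for the 10 endothelial genes, and all 147 stayed positive and short of the adjusted threshold. The count passing over all genes stayed at 0. The median log2 fold change ran from 0.64 (without shST3GAL3 1) to 1.36 (without shST3GAL3 3) when a library was left out. It was 1.24 with a pseudocount of 0.1, 0.99 with quantile normalization, 1.03 with median-ratio scaling and 0.77 with library weights, which gave shST3GAL3 1 a weight of 0.205. The count of genes without overlap was 10 of 10 without shControl 3 (20.2% of all genes) or shST3GAL3 3 (23.1%). With a minimum of 5 TPM it was 6 of the 7 left (15.5%). Elsewhere it was 9 of 10, against 10.5% (quantile normalization) to 21.2% (without shST3GAL3 1) of all genes. Leaving out a library cannot lower this count. With library weights Esam stood at 0.46. Among the other lists, quantile normalization left 4 transcription factor genes without overlap (10.5% of all genes) and 3 higher at an unadjusted p under 0.05 (6.19%). It gave medians of 0.11 for adhesion and clotting genes and -0.09 for junction partners. The count of ligand genes higher at that p was 3 with median-ratio scaling (6.93% of all genes), quantile normalization (6.19%) or no trend (8.71%). With library weights the medians were 0.16 for vessel subtypes, 0.21 for pericytes and -0.09 for epithelial genes. Whether the replicate numbers pair the tumours is not known. Same-numbered libraries' deviations from their group means correlated at 0.014, -0.08 and 0.04, and differently numbered ones at -0.123 to 0.128. With 3 libraries in each group these values cannot decide it. With the replicate block the median of the 10 stayed at 1.04 and 0 of them passed over all genes. At an unadjusted p under 0.05 there were 8, against 9.73% of all genes that were higher. Depth is unknown, so counting error at low levels, Tek and Kdr above all, cannot be given.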
